A study of Homo sapiens with 4 samples.

Results

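RAB GTPases are the largest branch of the RAS superfamily of small GTP-binding proteins. Each cycles between a GTP-bound form on a membrane and a GDP-bound form in the cytosol, and each recruits effectors that move, tether or fuse vesicles of 1 compartment. Many RABs have close paralogs, made by gene duplication, that encode nearly the same protein from separate genes. The messages followed here are the protein-coding genes whose symbol is RAB, a number and at most 1 letter. There were 63 of them among 61543 genes in the count table, and 34 of the 63 shared their number with another member.

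The RNA came from medium in which HEK293T cells, an established line derived from human embryonic kidney, had grown. The cells released EPN24 nanocages, self-assembling protein shells that leave the cell and carry RNA with them. In the EPN24-Cas13d group the shell protein carried Cas13d, a CRISPR effector directed to RNA, and in the EPN24 group nothing was fused to it. Each group had 2 libraries. The question put to them is which RNAs Cas13d binds in living cells. Both groups share the cell line and the synthetic ERCC RNA added before extraction. How the cells were made to produce the shells, and whether a guide RNA was present, is not given in the sources used here. Since all RNA of the supernatant was read, shell contents and loose RNA are not separated, and more released particles cannot be told apart from more RNA in each.

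The libraries held 4863449 and 5097332 gene counts with Cas13d and 1830860 and 1903492 without. A floor of 3 counts corresponded to 0.704 and 0.737 CPM (gene counts scaled to a common library size, with TMM factors between libraries) with Cas13d and to 1.31 and 1.39 CPM without. Intervals and floors cover counting error only, since PCR copies are not independent molecules. The labels do not say that replicates came from separate cultures, so p-values reflect only how far these libraries differ, possibly for technical reasons. All 8 HEK293T markers looked up had counts in every library, with a summed level of 2527 to 2542 CPM with Cas13d and 353 to 379 CPM without. VIM (1760 and 1776 CPM against 122 and 153) and DBN1 (614 and 598 against 46.6 and 44.3) carried most of that sum. NEFL was also higher, EYA1 (-3.03) and NEFM (-1.42) were lower, and PAX2, LHX1 and NES were not called. Of 14 markers of blood, liver, endothelial and fibroblast cells, 7 and 8 had a count in the EPN24-Cas13d libraries, at a summed 23.7 and 30.9 CPM, and 11 and 12 in the EPN24 libraries, at 107 and 94.7 CPM. HBA1 was at 0 in every library. The part of such RNA in the results below was not tested.

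With TMM scaling, messages for near-identical proteins differed in opposite directions between the groups in several RAB families. A stretch of 14 codons around the catalytic glutamine shows how such paralogs differ. It encodes the same 14 residues in RAB1A and RAB1B, in RAB5A, RAB5B and RAB5C, in RAB11A and RAB11B, and in RAB6A and RAB6B. Capitals mark a G or C at the third codon position, where a base can often change without changing the residue. The sequences are from GENCODE release 29 on GRCh38, written 5′ to 3′ in the sense of the message.

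RAB1A: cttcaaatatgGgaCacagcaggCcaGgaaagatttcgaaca

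RAB1B: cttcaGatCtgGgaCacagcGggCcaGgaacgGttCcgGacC

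RAB5A: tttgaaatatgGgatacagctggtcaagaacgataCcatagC

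RAB5B: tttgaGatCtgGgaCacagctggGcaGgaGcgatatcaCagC

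RAB5C: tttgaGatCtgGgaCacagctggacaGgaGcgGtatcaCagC

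RAB11A: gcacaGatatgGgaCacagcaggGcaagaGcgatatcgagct

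RAB11B: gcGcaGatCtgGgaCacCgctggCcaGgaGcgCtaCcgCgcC

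RAB6A: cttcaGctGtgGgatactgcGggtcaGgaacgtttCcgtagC

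RAB6B: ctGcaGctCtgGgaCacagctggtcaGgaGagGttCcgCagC

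Of the 14 codons, RAB1A has 4 ending in G or C and RAB1B has 11. RAB5A has 3, against 9 in RAB5B and 9 in RAB5C. RAB11A has 5 and RAB11B 13, and RAB6A has 7 and RAB6B 11. RAB1A and RAB1B differ at 8 of the 42 bases, 7 of them at the third codon position, and RAB11A and RAB11B at 10, all at that position. The stretch of RAB11B lies within 1 exon at chr19:8400006-8400047 on the plus strand, and that of RAB11A at chr15:65877475-65877516, also on the plus strand. These 4 families are shown because their messages differed in opposite directions, so they are no evidence for a link with the capitals. In other families, such as RAB2 and RAB4, both members were lower. Per ERCC, RAB6A turned direction and was called higher, while RAB1A (-0.30), RAB5A (-1.24) and RAB11A (-0.23) were not called. On that scale no family shown had members called in opposite directions. RAB5C, RAB6A and RAB11B turned direction with the GC trend removed.

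Of the 63 members, 54 passed the filter on low counts. The other 9 (RAB3A, RAB6C, RAB6D, RAB8B, RAB20, RAB27B, RAB33A, RAB37 and RAB38) had at most 16 counts in any library. In edgeR's quasi-likelihood fit, at an adjusted p of 0.05 over all tested genes, 18 RAB messages were higher in EPN24-Cas13d, 27 lower and 9 not called. These are 33.3% and 50% of the tested members. Of all 20476 tested genes 32.6% were higher and 48.2% lower, and of the protein-coding ones 37.0% and 42.9%, so the RAB counts lie near the background and say nothing particular about the family. The median log2 fold change was -1.53 over tested RABs, -0.96 over all tested genes and -0.40 over protein-coding ones. The CPM of the groups did not overlap for 50 of the 54, where 91.2% of all tested genes did not overlap.

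These values compare shares of each sample. When libraries were scaled to their ERCC totals, so that values stand for RNA per volume, the middle log2 fold change over tested genes moved up by 3.34. On that scale 29 RABs were higher and 3 lower (RAB3C, RAB13 and RAB17), where 58.4% of all tested genes were higher and 2.33% lower. All 18 RABs higher with TMM were also higher per ERCC, and of the 27 lower ones 3 were lower, 5 were higher and the rest were not called. The authors' deposited table lists adjusted p-values for all 63 members, with 28 higher and only RAB13 lower at 0.05, against 30.5% and 0.201% of all genes with such a value there.

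**Figure D1:**
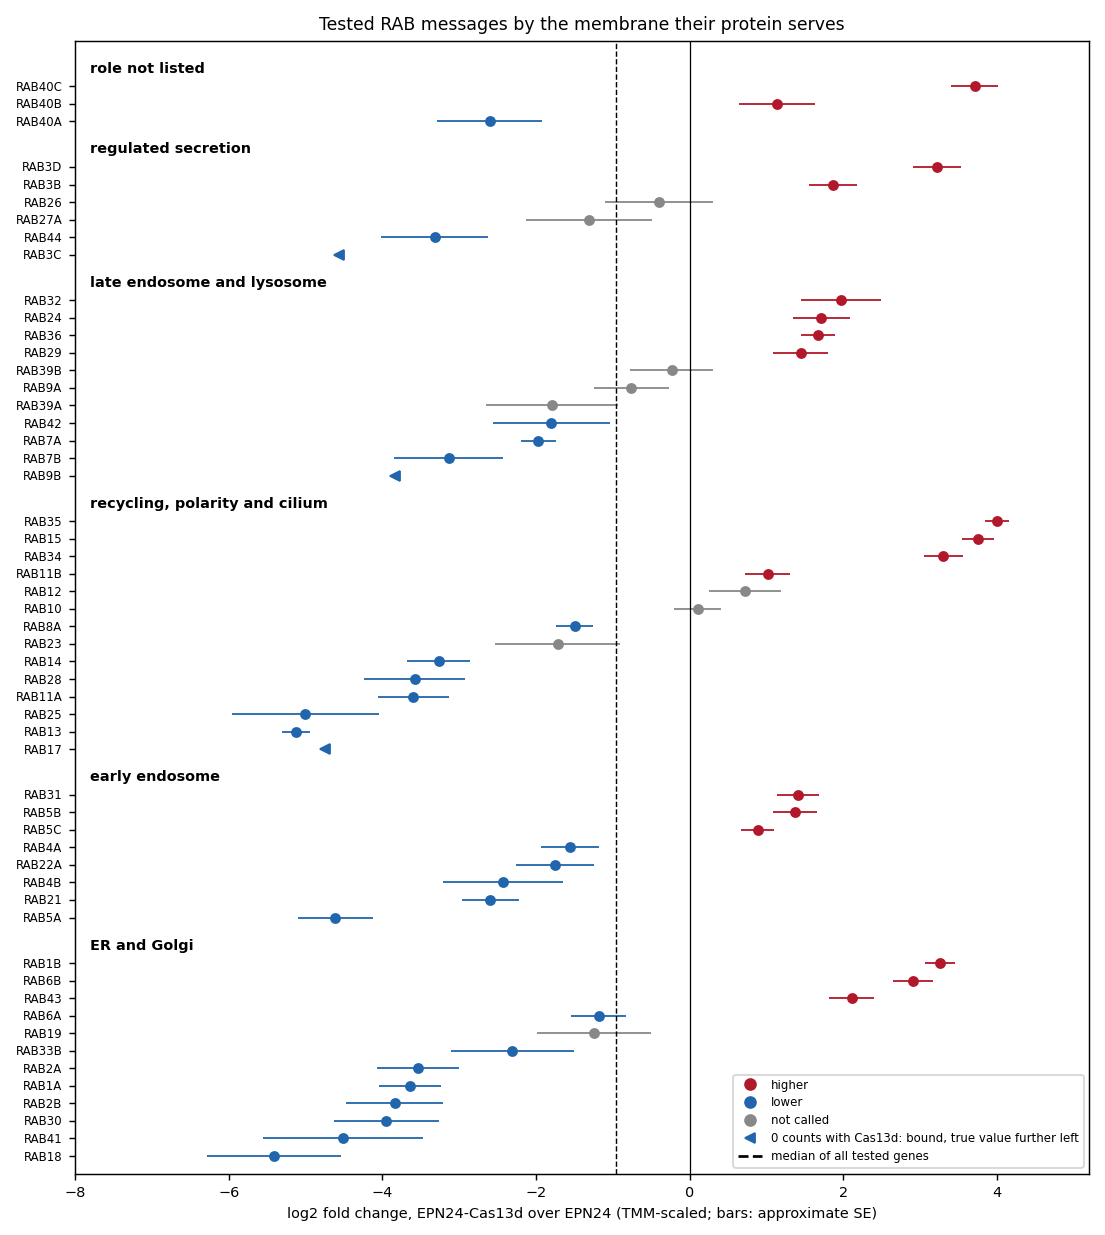
Log2 fold change of EPN24-Cas13d over EPN24 for the 54 tested RAB messages, grouped by the membrane their protein serves, with approximate standard errors. Triangles are the 3 members with 0 counts in both EPN24-Cas13d libraries, drawn at the bound that 3 counts allow, and the dashed line is the median of all tested genes (-0.96); every group holds members on both sides.

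Of 12 tested RABs of the endoplasmic reticulum and Golgi 3 were higher, 8 lower and 1 not called, where 32.6% and 48.2% of all tested genes were higher and lower. The members of the RAB1 and RAB6 pairs differed in direction and those of the RAB2 pair did not. The median log2 fold change of the group was -2.92 (0.38 per ERCC). RAB1A and RAB1B, which both direct traffic from the endoplasmic reticulum to the Golgi, encode proteins with 93.5% identical residues. RAB1B (chromosome 11, 66268590 to 66277492, plus strand, ENSG00000174903.16) measured 197 and 203 CPM with Cas13d and 15.7 and 26.3 CPM without. RAB1A (chromosome 2, 65070696 to 65130331, minus strand, ENSG00000138069.18) measured 1.88 and 2.46 CPM with Cas13d and 27.9 and 26.8 CPM without. Without Cas13d the messages were of similar count, and with Cas13d they lay far apart, with no overlap between groups for either.

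Their log2 fold changes were 3.26 (approximate SE 0.20, adjusted p = 1.96e-09) for RAB1B and -3.64 (SE 0.40, adjusted p = 1.64e-06) for RAB1A, both from edgeR. The log2 ratio of RAB1B to RAB1A counts within a library does not depend on how libraries are scaled. It was 6.54 and 6.23 with Cas13d and -0.80 and -0.025 without, a difference of 6.80 (95% exact conditional interval from counts 6.04 to 7.66). The two-sided exact permutation p was 0.333, which no arrangement of 2 against 2 libraries can go below. Per ERCC, RAB1A had a log2 fold change of -0.30 and was not called, while RAB1B had 6.63. Part of RAB1B's exons, 30.2% of their length, is shared with a lncRNA on the other strand, and 22.9% of RAB1A's with CEP68, also on the other strand, so reads of these genes may enter the counts.

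RAB6A and RAB6B, of Golgi and post-Golgi transport, encode proteins 89.4% identical. RAB6B, the brain-enriched form, measured 97.8 and 94.0 CPM with Cas13d and 17.0 and 8.31 CPM without, a log2 fold change of 2.91 (SE 0.26). RAB6A measured 9.62 and 6.88 CPM with Cas13d and 16.5 and 21.2 CPM without, a log2 fold change of -1.19 (SE 0.36) that turned to 2.17 and a call in the other direction per ERCC. Without EPN24-Cas13d replicate 2 RAB6A was not called (-0.90). The groups did not overlap for either. The log2 ratio of RAB6B to RAB6A was 3.33 and 3.75 with Cas13d and 0.037 and -1.33 without, a difference of 4.19 (interval from counts 3.46 to 4.73, exact permutation p = 0.333).

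RAB2A and RAB2B, which act at the Golgi and in lysosome fusion and whose proteins are 85.8% identical, moved in the same direction. Both were lower, though not called per ERCC (-0.24 and -0.54), at log2 fold changes of -3.54 and -3.84, and their log2 ratio differed between groups by 0.21 with an interval from counts of -1.39 to 1.72. RAB18, of lipid droplets and the endoplasmic reticulum, had 0 and 2 counts with Cas13d and 28 and 25 without. Its log2 ratio from counts was -5.63 (95% exact binomial interval -8.71 to -3.71). RAB43, a Golgi RAB, measured 34.9 and 36.6 CPM with Cas13d and 8.70 and 7.85 CPM without, a log2 fold change of 2.10, but 79.3% of its exon length is shared with the ISY1-RAB43 readthrough gene, so the message of origin is uncertain. With the GC trend removed RAB43 was not called (0.21). RAB30 (-3.95) and RAB33B (-2.31), both Golgi RABs, were lower, but RAB33B was not called without EPN24-Cas13d replicate 1 (-1.65), EPN24 replicate 1 (-2.35) or EPN24 replicate 2 (-2.47). RAB41 had 1 count in all with Cas13d and 16 without.

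Among RABs of the early endosome 3 were higher and 5 lower of 8 tested, beside 32.6% and 48.2% of all tested genes. The group's median log2 fold change was -1.66, or 1.68 per ERCC. RAB5A, RAB5B and RAB5C all drive early endosome fusion. RAB5A measured 1.41 and 1.47 CPM with Cas13d and 22.6 and 49.9 CPM without, a log2 fold change of -4.61 (SE 0.49). RAB5B measured 48.3 and 36.1 CPM with Cas13d and 20.0 and 12.5 CPM without, a log2 fold change of 1.37 (SE 0.29). RAB5C measured 54.4 and 48.1 CPM with Cas13d and 26.5 and 29.1 CPM without, a log2 fold change of 0.88 (SE 0.22). So RAB5A was lower and both of its paralogs were higher, with no overlap in any of the 3. RAB5C was not called without EPN24-Cas13d replicate 1 (0.86). It shares 28.8% of its exon length on the same strand with ENSG00000267261, which had 273 and 275 counts with Cas13d and 38.3 and 28.7 without, so its direction is uncertain. Per ERCC RAB5A was not called (-1.24).

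The log2 ratio of RAB5B to RAB5A was 4.99 and 4.50 with Cas13d and -0.20 and -1.97 without, a difference of 5.84 (interval from counts 5.08 to 7.08, exact permutation p = 0.333). The proteins are 81.9% identical. RAB31, a relative of RAB22A in endosome-to-Golgi transport, was higher at 1.41 and RAB22A lower at -1.75, though higher per ERCC (1.56) and not called without EPN24-Cas13d replicate 2 (-1.34) or EPN24 replicate 1 (-1.32). RAB21, of integrin traffic, was lower at -2.60, but was not called per ERCC (0.75) or with the GC trend removed (-0.33). RAB22A was likewise not called with that trend removed (-0.071). RAB4A and RAB4B, of fast recycling, were both lower (-1.56 and -2.43), but per ERCC RAB4A was higher (1.81) and RAB4B not called (0.96). RAB4B was also not called without EPN24 replicate 2 (-1.21), and their log2 ratio differed between groups by 0.66 with an interval from counts of -0.24 to 2.02. RAB4B shares 27.3% of its exon length with the RAB4B-EGLN2 readthrough gene, so its count is uncertain.

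**Figure D2:**
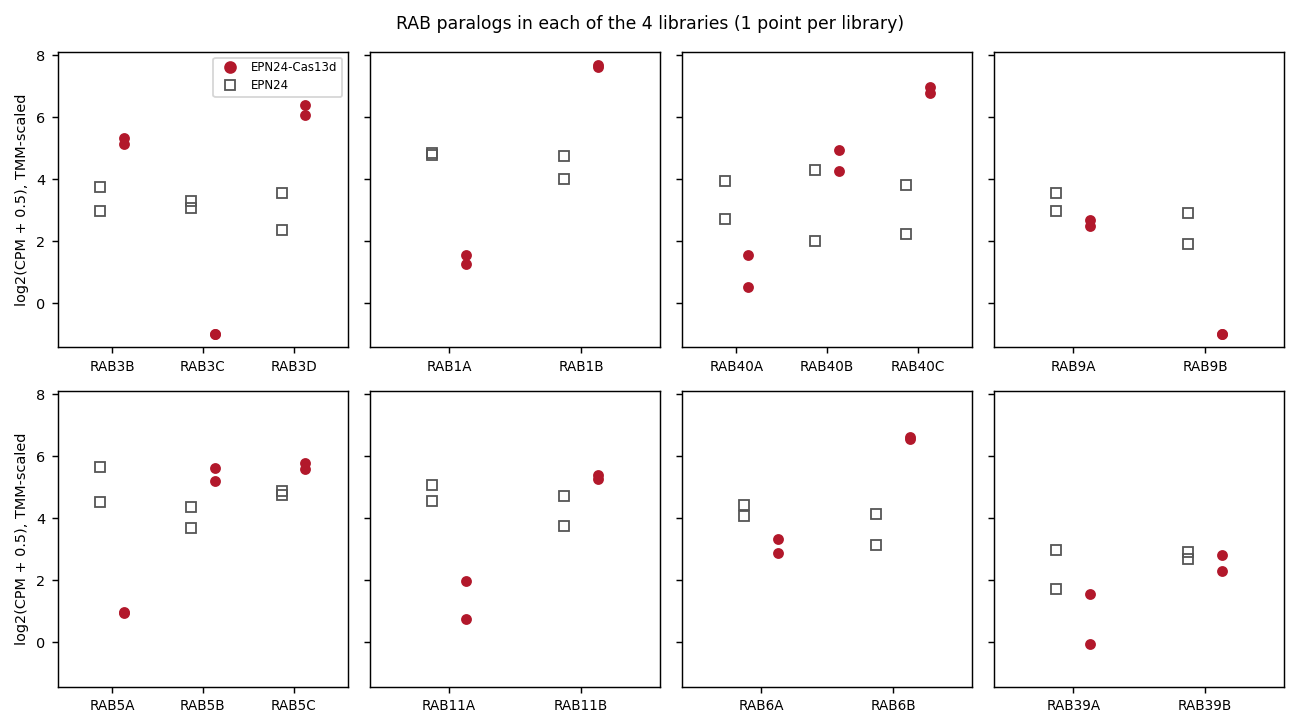
Log2 of TMM-scaled CPM plus 0.5 in each library for the tested members of the 8 paralog sets with the widest span of log2 fold change, with 1 point per library. In the RAB1 panel the squares (EPN24) of both genes lie between 15.7 and 27.9 CPM, while the circles (EPN24-Cas13d) lie at 1.88 and 2.46 CPM for RAB1A and at 197 and 203 CPM for RAB1B.

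RABs of recycling, cell polarity and the cilium held RAB35 and RAB13, which lie far apart in direction. Of 14 tested, 4 were higher, 7 lower and 3 not called, beside 32.6% higher and 48.2% lower of all tested genes. The group's median log2 fold change was -1.61, or 1.74 per ERCC. RAB11A and RAB11B serve the slow recycling endosome with proteins that are 92.1% identical. RAB11B measured 38.0 and 41.5 CPM with Cas13d and 26.1 and 12.9 CPM without, a log2 fold change of 1.02 (SE 0.29, adjusted p = 0.00573 by edgeR). RAB11A measured 1.17 and 3.44 CPM with Cas13d and 23.1 and 33.3 CPM without, a log2 fold change of -3.60 (SE 0.46, adjusted p = 9.00e-06 by edgeR). Per ERCC RAB11A was not called (-0.23). Without EPN24 replicate 2, RAB11B was not called, at 0.52.

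The log2 ratio of RAB11B to RAB11A was 4.89 and 3.60 with Cas13d and 0.19 and -1.37 without. The difference was 4.84 (interval from counts 3.89 to 5.58, exact permutation p = 0.333). RAB25, an epithelial member of the RAB11 family under its own number, had 0 and 2 counts with Cas13d and 24 and 16 without, a log2 ratio from counts of -5.22 (95% exact binomial interval -8.32 to -3.28). RAB8A, of polarised secretion and ciliary membrane delivery, measured 14.3 and 16.7 CPM with Cas13d and 45.3 and 42.5 CPM without. Its log2 fold change of -1.50 turned to 1.86 and a call in the other direction per ERCC. A lncRNA on the other strand shares 39.7% of RAB8A's exon length. That lncRNA had 25.5 and 27.5 counts with Cas13d and 36 and 25.5 without, so reads of it may enter the RAB8A count.

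RAB35, of plasma membrane recycling and cytokinesis, had the largest log2 fold change of the family. RAB35 (chromosome 12, 120095099 to 120117502, minus strand, ENSG00000111737.12) measured 382 and 388 CPM with Cas13d and 21.8 and 26.3 CPM without. Its log2 fold change was 4.0 (SE 0.15, adjusted p = 1.27e-11 by edgeR), and its counts per ERCC count were 165-fold higher. RAB15, of the endocytic recycling compartment, measured 167 and 167 CPM with Cas13d and 14.8 and 9.70 CPM without (log2 fold change 3.75). RAB34, of cilium formation and lysosome positioning, measured 75.0 and 75.6 CPM with Cas13d and 6.96 and 8.31 CPM without (3.30). The groups did not overlap for any of these 3 genes.

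RAB13 stood at the other end. RAB13 (chromosome 1, 153981617 to 153986358, minus strand, ENSG00000143545.10) encodes a regulator of cell junctions, and its message is known to collect in the protrusions of migrating cells. It measured 14.8 and 11.8 CPM with Cas13d and 402 and 527 CPM without. The log2 fold change was -5.12 (SE 0.18, adjusted p = 8.40e-12 by edgeR). It stayed negative at -1.75 per ERCC (adjusted p = 1.10e-05), and RAB13 counts per ERCC count were 0.296 of those without Cas13d. The authors' deposited table gives a log2 fold change of -1.78 (standard error 0.345, adjusted p = 1.07e-06). A same-strand gene that shares 24.8% of RAB13's exon length, ENSG00000285641, had 242 and 255 counts with Cas13d and 473 and 543 without, against 63 and 48, and 923 and 1142, for RAB13. Reads in the shared part could belong to either gene.

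RAB17, an epithelial transcytosis RAB, had no count in either EPN24-Cas13d library and 26 and 17 without. With TMM scaling it was at least 26.8-fold lower if the group had held 3 counts. RAB14, of traffic between Golgi and endosomes (-3.27), and RAB28, a ciliary RAB (-3.58), were also lower. RAB10 (0.11), RAB12 (0.72) and RAB23 (-1.72), with roles in exocytosis, receptor recycling and the cilium, were not called.

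**Figure D3:**
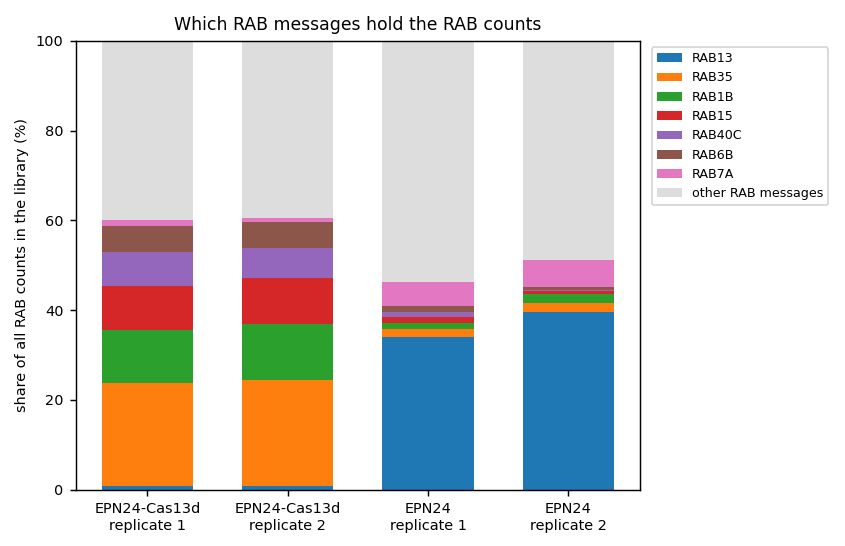
Share of all RAB counts in each library held by 7 RAB messages, in percent. RAB13 fills 34.0% and 39.5% of the EPN24 bars and 0.884% and 0.722% of the EPN24-Cas13d bars, where RAB35 holds 22.8% and 23.8%.

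RAB messages took 0.140% and 0.137% of gene counts with Cas13d and 0.148% and 0.152% without, a ratio of 0.922 between group means (exact permutation p = 0.333, two-sided, the smallest possible). Of protein-coding counts they took 0.149% and 0.146% with Cas13d and 0.347% and 0.385% without, a ratio of 0.402. Per ERCC count the RAB total was 13.6-fold higher with Cas13d (0.0803 ± 0.00101 against 0.00592 ± 0.000248, SD, n = 2). RAB13 alone held 34.0% (95% exact binomial interval 32.2 to 35.8) and 39.5% (37.8 to 41.4) of RAB counts in the EPN24 libraries, and 0.884% (0.680 to 1.13) and 0.722% (0.533 to 0.957) in the EPN24-Cas13d libraries. Without RAB13, RAB messages took 0.139% and 0.136% of gene counts with Cas13d and 0.0978% and 0.0917% without. The order of the groups in the share of all gene counts therefore rests on this single message. The share of protein-coding counts and the total per ERCC count were not recomputed without RAB13. RAB35 held 22.8% and 23.8% of RAB counts with Cas13d and 1.84% and 1.97% without, and RAB1B 11.8% and 12.4% against 1.33% and 1.97%. On a per-length scale, the highest RAB levels were 103 CPM per kb for RAB1B, 95.8 for RAB35 and 33.8 for RAB15 with Cas13d. Without Cas13d they were 169 CPM per kb for RAB13, 10.8 for RAB1B and 10.1 for RAB5C.

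Among late endosome and lysosome RABs 4 were higher, 4 lower and 3 not called of 11 tested (median -0.76, or 2.57 per ERCC). Shares over all tested genes were 32.6% higher and 48.2% lower. RAB7A, the main RAB of late endosomes and lysosomes, measured 19.7 and 16.5 CPM with Cas13d and 62.7 and 79.4 CPM without, a log2 fold change of -1.97 that turned to 1.40 and a call in the other direction per ERCC. RAB7B was lower at -3.14, and the log2 ratio of RAB7A to RAB7B differed between groups by 1.08 (interval from counts 0.054 to 2.56, exact permutation p = 0.333). Their proteins are only 49.2% identical.

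RAB9A and RAB9B return receptors from late endosomes to the Golgi. RAB9A measured 5.16 and 5.89 CPM with Cas13d and 11.3 and 7.39 CPM without and was not called (-0.76). RAB9B had no count with Cas13d and 16 and 6.75 without. With TMM scaling it was at least 14.3-fold lower by the same floor of 3 counts per group. Per ERCC RAB9B was not called (adjusted p = 0.0798 by edgeR), and such bounds were not computed on that scale. Higher members were RAB24, of autophagy (1.71), RAB29 (1.44) and RAB32 (1.97), of lysosome-related organelles, and RAB36 (1.67). With the GC trend removed RAB24 (0.32) and RAB36 (0.52) were not called. RAB24 shares 44.8% of its exon length with MXD3 on the same strand. RAB39B, a mainly neuronal RAB, measured 6.57 and 4.42 CPM with Cas13d and 6.96 and 6.00 CPM without, with overlapping groups (-0.24, not called). RAB39A was not called at -1.79, and the ratio of RAB39B to RAB39A overlapped between groups (difference 1.68, interval from counts 0.29 to 2.95, exact permutation p = 0.667).

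Among regulated secretion RABs 2 were higher, 2 lower and 2 not called of 6 tested (median -0.86, or 2.48 per ERCC). Shares over all tested genes were again 32.6% higher and 48.2% lower. RAB3A, RAB3B, RAB3C and RAB3D control the release of secretory and synaptic vesicles. RAB3D measured 84.0 and 66.5 CPM with Cas13d and 11.3 and 4.62 CPM without (3.22, SE 0.31), and RAB3B 39.9 and 34.1 against 7.40 and 12.9 CPM (1.87, SE 0.31). RAB3C had no count with Cas13d and 18 and 20 without, at least 23.7-fold lower by that floor with TMM scaling. The log2 ratio of RAB3D to RAB3C was 0.52 and -0.97 without Cas13d and at least 7.79 larger with it, at that floor. RAB44, an immune cell RAB, was lower at -3.32.

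The RAB40 proteins differ from the rest by a SOCS box, with which they join ubiquitin ligases. RAB40C measured 126 and 109 CPM with Cas13d and 13.5 and 4.16 CPM without (3.71, SE 0.30). RAB40A, an X-linked copy, measured 0.938 and 2.46 CPM with Cas13d and 14.8 and 6.00 CPM without (-2.60, SE 0.69, and not called at -1.95 without EPN24 replicate 1). RAB40B measured 18.8 and 30.0 CPM with Cas13d and 3.48 and 18.9 CPM without. Its groups overlapped, and its log2 fold change of 1.13 (adjusted p = 0.0462 by edgeR) was 0.22 and not called without EPN24 replicate 1. The log2 ratio of RAB40C to RAB40A was 6.90 and 5.40 with Cas13d and -0.13 and -0.51 without, a difference of 6.47 (interval from counts 5.32 to 7.43, exact permutation p = 0.333). RAB40 copies are similar enough that some reads may be split between them.

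Each of the 11 paralog sets with at least 2 tested members gave a ratio, of its highest to lowest member by log2 fold change. This ratio did not overlap between groups in 6 sets, and in 2 more the lower member was at 0 with Cas13d. Of all tested genes 91.2% had no overlap of CPM between groups. Ratios of other gene pairs were not computed, so these counts say nothing particular about RABs. The counting interval lay above 0 in 9 of the 11. The pair in each set was picked as the extremes, so a positive difference is fixed by the choice. Its size and the count of intervals above 0 also depend on that choice. In 7 of the 11 sets the member with the higher fold change had more G or C at the third codon position, in 8 it had the higher transcript GC content and in 5 the shorter 3′ UTR. The exceptions for the third position were RAB9A over RAB9B (39.3% and 54.7%), RAB4A over RAB4B (42.7% and 74.6%), RAB7A over RAB7B (61.8% and 68.3%) and RAB2A over RAB2B (35.8% and 54.2%). In the RAB11 pair 199 aligned residues are the same, and of those codons 112 end in G or C only in RAB11B and 4 only in RAB11A. In the RAB1 pair 78 of 188 such codons end in G or C only in RAB1B and 12 only in RAB1A.

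**Figure D4:**
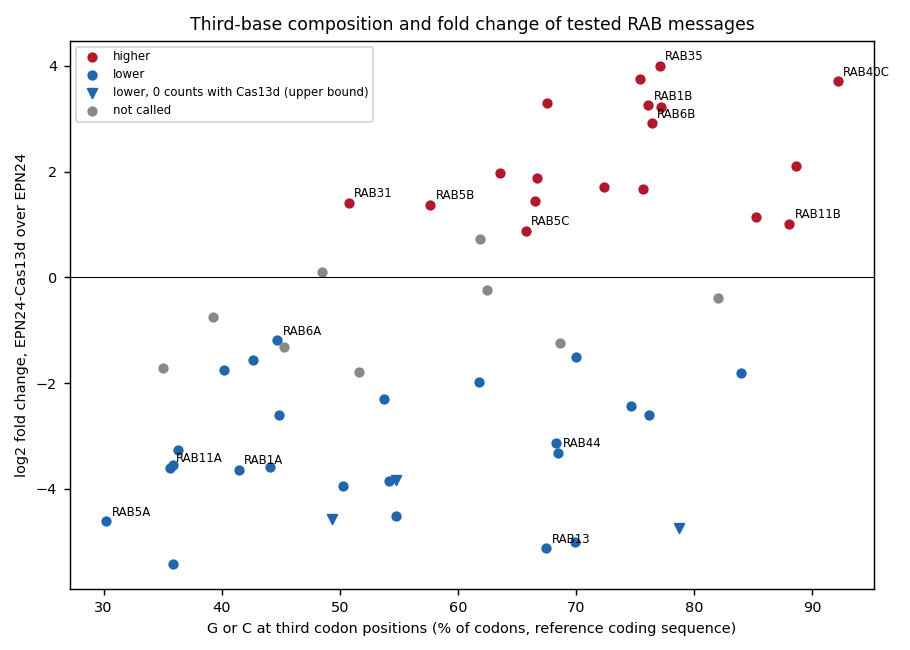
Log2 fold change of EPN24-Cas13d over EPN24 for the 54 tested RAB messages against the percentage of codons ending in G or C in the reference coding sequence. The 18 higher members lie between 50.8% and 92.2%, while the 27 lower ones span 30.2% to 83.9%, with RAB13 at 67.5%; triangles are upper bounds for members with 0 counts with Cas13d.

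Over all tested RABs the third codon position held G or C in a median of 75.6% of codons for the 18 higher members (range 50.8 to 92.2) and 53.7% for the 27 lower ones (30.2 to 83.9). Transcript GC content had medians of 56.3% and 42.0%. Across the 54 messages the Spearman correlation of log2 fold change was 0.51 with transcript GC, 0.48 with the third position and 0.45 with 3′ UTR GC, but 0.046 with 3′ UTR length and -0.042 with exon length. These are descriptions over genes of the same libraries, and genes are not independent replicates. Those RAB values use a principal coding transcript. With the longest transcript of each gene, the correlation with GC was 0.53 over RABs and 0.47 over 19924 tested genes. So RAB messages follow composition about as closely as genes do in general. With the GC trend of all genes removed, 14 RABs were higher and 25 lower, against 29.7% and 40.0% of all tested genes, and 12 of the 18 higher and 22 of the 27 lower members kept their call. RAB1B and RAB1A then had log2 fold changes of 1.46 and -1.60, and RAB5B and RAB5A 1.92 and -3.30, while RAB11B turned to -1.13 and was called lower, beside RAB11A at -1.36. RAB13 (67.5% at the third position) kept -5.18.

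Some members lay near the level of genes with little expected expression. Olfactory receptor genes, which serve the sense of smell, had 1.80 and 1.40 counts per kb in the EPN24 libraries and 0.174 and 0.137 with Cas13d. Of the 27 lower RABs 8 lay within 3 times that density in EPN24, and of the 18 higher ones 6. They include RAB3C at 1.23 times, RAB18 at 1.15, RAB9B at 1.89 and RAB17 at 2.82, whose counts with Cas13d were at or near 0. RAB13 lay at 235 times it, RAB1A at 11.5 and RAB11A at 6.88. With that density subtracted from every gene, 12 RABs were higher and 18 lower of 42 tested, against 34.0% and 37.0% of all tested genes. RAB5B (0.91), RAB5C (0.059), RAB11B (0.21), RAB29 (1.05), RAB32 (1.42), RAB40B (0.82) and the lower member RAB22A (-1.88) were then no longer called, and 8 of the 27 lower members were no longer tested. Among genes with at least 10 counts and 10 CPM in 2 libraries, 11 RABs were higher and 17 lower of 34 tested, against 40.8% and 41.7% of all such genes. There RAB5B (0.51), RAB5C (0.026), RAB11B (0.16), RAB29 (0.59), RAB31 (0.55) and RAB40B (0.28) were tested and not called, and RAB10 was called lower (-0.75).

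**Figure D5:**
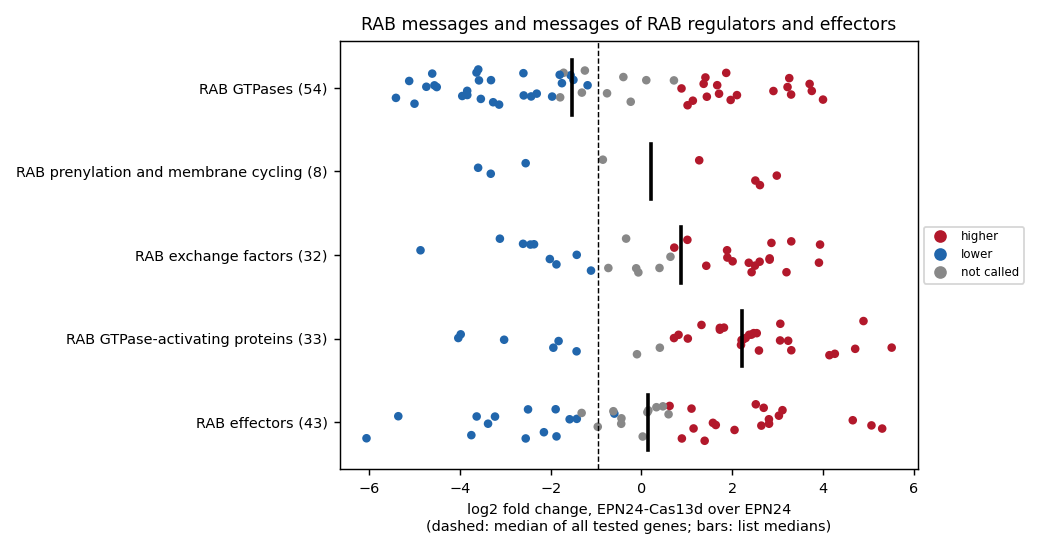
Log2 fold change of EPN24-Cas13d over EPN24 for tested RAB messages and for 4 lists of messages whose proteins act on RABs, with 1 point per gene, black bars at list medians and a dashed line at the median of all tested genes (-0.96). GTPase-activating proteins have the highest list median, 2.21, and RABs the lowest, -1.53.

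Messages for proteins that act on RABs were tested on the same fit, in which 32.6% of all tested genes were higher and 48.2% lower (37.0% and 42.9% of protein-coding ones). Among 8 genes of RAB prenylation and membrane cycling, which attach RABs to lipid and extract them from membranes, 4 were higher and 3 lower (median 0.21). The geranylgeranyl transferase that adds the lipid has 2 subunits, and their messages parted with TMM scaling. RABGGTA measured 63.8 and 76.4 CPM against 10.9 and 12.0 CPM (2.61) and RABGGTB 10.3 and 8.59 against 47.0 and 64.7 CPM (-2.55). Per ERCC both were called higher (5.97 and 0.82). With the GC trend removed RABGGTA was higher (0.83) and RABGGTB was not called (-0.32). RABGGTB was chosen after its values were seen.

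Of 32 RAB exchange factors, which load RABs with GTP, 17 were higher and 9 lower (median 0.87), beside the same shares of protein-coding genes, 37.0% and 42.9%. DENND4B, an exchange factor of RAB10, measured 618 and 655 CPM against 33.9 and 49.4 CPM (3.94), and RGP1, part of the RAB6 exchange factor, 320 and 315 CPM against 22.6 and 19.4 CPM (3.91). Of 33 GTPase-activating proteins, which switch RABs off, 25 were higher and 6 lower (median 2.21), beside 37.0% and 42.9% of protein-coding genes. TBC1D10B measured 1001 and 999.9 CPM against 33.9 and 33.3 CPM (4.89), and TBC1D9B 809.6 and 859.7 CPM against 30.5 and 33.3 CPM (4.71).

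Of 43 effectors 18 were higher and 14 lower (median 0.15), where 37.0% and 42.9% of protein-coding genes were. MICALL1, an effector of RAB8, RAB13 and RAB35 on recycling tubules, measured 1180 and 1144 CPM against 32.6 and 25.9 CPM (5.31), and RAB11FIP3, which links RAB11 to cytokinesis, 551 and 564 CPM against 21.3 and 11.5 CPM (5.07). These list medians were 3.57, 4.22, 5.56 and 3.50 per ERCC, in the order given. No list was tested as a set, so none is called different from other genes.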

How the data were processed

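Supernatant RNA of 4 libraries was analysed, 2 per group, grouped by sample title. The submitters' processing notes name Trim Galore 0.6.7, STAR 2.7.10a, featureCounts 2.0.1 and DESeq2 1.36.0, with hg38 and GRCh38. No source used here gives the annotation release, strand setting or handling of multi-mapped reads. The authors deposited expected counts per gene (read counts of which 7.82% to 9.19% per library were not whole), with no normalization, and the exon length in bp (other unit). Of 61640 rows, 5 fragments of a broken row were left out. The authors' deposited DESeq2 table holds the signal (normalized count averaged over libraries), the log2 fold change and its error, a Wald score, a p-value and adjusted p-value; symbols and gene types came from it.

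The fit used whole-number rounded counts in edgeR 4.0.16 under R 4.3.3: filterByExpr, TMM without the 92 ERCC rows, robust quasi-likelihood test, Benjamini-Hochberg adjustment over all tested genes, threshold 0.05. For the approximate SE, the size of a log2 fold change was divided by the root of its F statistic. Paralog ratios used log2 of counts plus 0.5 and exact permutation over libraries. Transcript features came from GENCODE release 29, using a principal coding transcript of each RAB gene, and protein identity from alignment of its translation. The GC trend used the longest transcript of each gene, found for 97.3% of tested genes. The test was run on simulated data first. The members and lists were chosen with earlier results of these data known. Values in each library are given for the 8 paralog sets of widest span, the 4 largest and 4 most negative of the other called members, the 3 highest per kb in each group, and the 2 smallest p of each list, of which 1 is not reported here. Alternatives are those named in the closing section. No other columns of samples were present, and reads shared by overlapping genes were not resolved. Exons of 33 members overlapped another gene. For 15 members the overlap with 1 gene exceeded 10% of exon length, among them RAB23 (57.8%) and RAB41 (49.3%).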

Additional observations from a re-analysis of the deposited data

How the results depend on the processing

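Scaling to ERCC totals moved the most values: 29 RABs were higher and 3 lower, 11960 and 477 of all tested genes, 98 and 2 of the RAB machinery genes, and the RAB median was 1.83. Log2 fold changes that turned positive were RAB4A 1.81, RAB4B 0.96, RAB6A 2.17, RAB7A 1.40, RAB7B 0.18, RAB8A 1.86, RAB9A 2.57, RAB14 0.088, RAB19 2.05, RAB21 0.75, RAB22A 1.56, RAB23 1.63, RAB26 2.97, RAB27A 1.99, RAB33B 1.00, RAB39A 1.5, RAB39B 3.10, RAB40A 0.69 and RAB42 1.49. With at least 10 counts and 10 CPM, 11 RABs were higher and 17 lower of 34, 4888 of all genes were lower and the median was -0.36. Of the 18 higher members 1 was not tested there and 6 lost their call, and 16 of the 17 lower were lower before, RAB10 being the other. Removing the GC trend gave a median of -0.32 and 20 machinery genes lower, and turned RAB4A (0.29), RAB5C (-0.12), RAB6A (0.19), RAB9A (1.03), RAB11B (-1.13), RAB23 (0.34), RAB27A (0.72) and RAB39B (0.78). Subtracting olfactory density gave 5835 genes lower and a RAB median of -0.69, and the RAB4A to RAB4B difference turned to -0.52. The RAB7A to RAB7B difference was 0.85 there and 0.79 with 2 added to each count. RAB10 was -0.75 with the stricter filter, -0.66 with density subtracted and -0.29 with counts halved. With the GC trend removed RAB10 (1.64) and RAB12 (1.40) were called higher, as they were per ERCC (3.46 and 4.05). RAB39B was 0.12 with no filter. The cause was not tested.

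Leaving out 1 library gave a RAB median of -1.44 to -1.29, where the median over all tested genes ranged from -1.17 to -0.42. RAB10 ranged from -0.28 to 0.51, with -0.076 without EPN24 replicate 1, RAB26 from -1.17 to 0.63 and RAB39B from -0.48 to 0.084. The RAB2A to RAB2B difference ranged from -0.13 to 0.56, with -0.043 without EPN24-Cas13d replicate 2, and RAB4A to RAB4B from -0.065 to 1.38. The bounds ranged from 6.58 to 8.71 for RAB3D over RAB3C and from 1.99 to 3.24 for RAB9A over RAB9B. RAB42 was not called without EPN24-Cas13d replicate 1 (-1.70), EPN24-Cas13d replicate 2 (-1.76) or EPN24 replicate 1 (-1.29). DESeq2 size factors kept all 18 higher and 27 lower calls, and DESeq2's Wald test gave 17 and 24. With a replicate block 18 RABs were higher and 25 lower. In these settings, in that order, the median over all tested genes was -0.98, -0.99 and -0.96. Over RABs it was -1.55, -1.55 and -1.52. Shares of all genes called are not given here for them, so these counts say nothing particular about RABs. Deviations of same-numbered libraries were not correlated over genes (-0.0041). With 2 libraries per group this cannot exclude a shared culture or preparation.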

Other observations

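All 14 processed pseudogenes of RAB genes and partners stayed below the filter, with at most 10 counts in any library. RAB1C, a RAB1 pseudogene, had 2 counts in 1 EPN24-Cas13d library and none elsewhere. In the edgeR fit of all genes, the divergent transcript RAB30-DT was lower with Cas13d (log2 fold change -2.95, adjusted p = 3.64e-04), as was RAB30 itself (-3.95). RAB33B-AS1 was also lower (-2.40, adjusted p = 0.00639), as was RAB33B (-2.31). RAB33B and RAB33B-AS1 share 466 bp of exon, so some reads may be common to both. Per ERCC neither RAB30-DT (0.38) nor RAB33B-AS1 (0.90) was called. With the GC trend removed RAB30-DT (-0.85), RAB33B-AS1 (-1.40) and RAB33B (-0.31) were not called, while RAB30 stayed lower (-1.68). RAB11B-AS1 was not called (0.18), while RAB11B was higher (1.02). Per ERCC both were higher (3.51 and 4.36), and with the GC trend removed both were lower (-1.55 and -1.13). The readthrough gene RAB4B-EGLN2 had 730 and 731 counts with Cas13d and 9.67 and 11.3 without (log2 fold change 5.21, adjusted p = 5.09e-11). Its direction was opposite to that of RAB4B (-2.43), with which it shares 1076 bp of exon. RAB4B itself had only 4.08 and 8.58 counts with Cas13d. Which part of the readthrough gene the reads cover was not examined, so they do not show a higher message that includes RAB4B.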
